A study of Rattus norvegicus with 30 samples.

Results

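The genes described here encode the proteins of the cytosolic ribosome. They were chosen by symbol, as every probe whose gene symbol starts with Rpl or Rps followed by a digit, or is Rplp0, Rplp1, Rplp2 or Rpsa, with the Rps6k kinases left out. The choice gave 68 probes of 67 genes, out of 22523 probes in the value table. Among these genes Rps19bp1 encodes a binding partner of a ribosomal protein and no ribosomal protein itself, and Rpl3l, Rpl22l1 and Rpl7l1 are paralogues of core genes. A set of 5 probes, 1 each for Rpl37l1, Rpl7 and Rpl23 and 2 for Rps9, parted the arrays into distinct levels and is kept apart from the other 63 throughout.

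The RNA came from the amygdala of 30 adult Sprague Dawley rats, each hybridised to an Illumina BeadChip of its own. Controls were never exposed to the stressor but went through the same behavioural tests, and the other rats were exposed to predator scent and then classed by their behaviour as minimal or extreme responders. Each sex gave a control, a minimal and an extreme group of 5 rats, which makes 6 groups. Minimal and extreme responders had the same exposure and were told apart by their behaviour, so their difference compares kinds of responder, not treatments. Every array carries a rat identifier of its own, and precision is limited by having 5 arrays a group.

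A ribosome is built from a small subunit, which reads the messenger RNA, and a large subunit, which joins the amino acids. The genes for its proteins are among the most strongly transcribed in any cell, neurons included, and vertebrate transcripts of this family typically begin with a run of C and T bases, the terminal oligopyrimidine tract, through which mTOR signalling controls how much of them is translated. Rat cells also hold many processed pseudogenes of these genes. Probe sequences were not used here, so it was not checked whether a probe could also bind a pseudogene or paralogue.

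The start sites of members that the results turn on are shown first, because the shared tract is the sequence feature the family is known for. Not all members below show a run of C and T at their annotated start. Each line gives 20 bases before and 10 bases from the annotated transcription start, 5′ to 3′ on the gene's strand, from RefSeq on GRCr8. Capitals mark the longest run of at least 6 C or T bases that reaches within 5 bases of the start.
Rpl23, chr10:83272175-83272204, minus strand: cttgtactaaCTTCCTTTCTgactctttcc
Rpl14, chr8:129163600-129163629, plus strand: cggcagggcgggCCCTCTCCCTTCTCgctg
Rpl24, chr11:58128396-58128425, minus strand: gaagggaatttagggaggagaTTCTCTacc
Rps23, chr2:23814497-23814526, plus strand: ccttgtgggtccttcctgCCTCTCTTCTCT
Rpl10, chrX:157205830-157205859, plus strand: atgcgcaggcgtgggagcgTCTCTTTTCCT
Rpl36al1, chr6:93392249-93392278, minus strand: tcagttccgacttccgctccatccgtccct
Rps12, chr1:23500055-23500084, plus strand: catgcgcacagaagcccagcagagcgctta
Rps6, chr5:106420531-106420560, minus strand: ttcgtgacgcctcctaggcggtcggctgtg
Rpl23, Rpl14, Rpl24, Rps23 and Rpl10 had such a run, and Rpl36al1, Rps12 and Rps6 had none. The Rps6 line does hold a run of 6 C or T bases, which ends just outside the limit of 5 bases. The marked run of Rpl23 ends before the annotated start, where the first base is G, and a further, unmarked run follows shortly after that start. The marked run of Rpl24 follows a first base A. A run marked or missing here depends on the annotated start and does not show whether a transcript begins with the tract. Of the 67 genes, 55 matched the RefSeq promoter table. A run of this kind was found in 34 of these 55 (61.8%), against 6274 of all 33469 promoters in the table (18.7%). The first transcribed base was C in 29 of 55 (52.7%), against 24.1% of all. The motif CTTTCC, searched on both strands of the 300 bases of each promoter and able to overlap such a run, was present in 25 of 55 (45.5%), against 26.4% of all. These matches describe the annotated sequences only, and Rpl14, which rose in the comparison of females below, and Rpl10, which fell, both carry a run.

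Most members were well above the median of their array, which was 7.02 on the log2 scale. Of the 63 probes kept together, 60 exceeded the median of their array on 5 or more arrays and were tested. Rpl11 and Rpl36a, both of the large subunit, passed it on 0 arrays, and Rpl34 on 1 array, so these were not tested. Rps19 passed on 7 arrays and Rpl12 on 14, so these entered near the detection limit. Rpl12 lay below the array median on every female control and male extreme array, so it was tested only through the groups where it was high, its differences from those groups are given without a test, and counts are given with and without it. Averaged over the tested members, the level of an array was 12.05 ± 0.09 (SD, n = 5) in female controls, 12.10 ± 0.12 in female minimal and 12.09 ± 0.06 in female extreme responders. The male groups had 12.12 ± 0.09 in controls, 12.08 ± 0.02 in minimal and 12.05 ± 0.09 in extreme responders. The group means lay within the spread between arrays of a group, except that the male control mean lay above every male minimal array, at 12.04 to 12.10. The changes below are described member by member. The median over members also differed from that of all tested probes in some comparisons, as in male minus female controls, at 0.0884 against -0.0013. In female extreme minus minimal responders it was 0.0032 against 0.0002. In bulk tissue, fewer cells of a type and less RNA per cell cannot be told apart.

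Rpl37l1, which the rat annotation names as a gene like Rpl37 of the large subunit, had only high or low values. Its log2 intensities in female controls 1 to 5 were 9.91, 9.73, 10.07, 9.56 and 9.31, and in male extreme responders 9.44, 9.83, 9.71, 9.72 and 9.57. Male controls had 12.30, 12.48, 12.71, 12.73 and 12.40. These 3 groups each lay wholly on 1 side. The other groups were mixed, with 12.48, 8.98, 9.59, 12.36 and 12.51 in female minimal, 12.42, 9.54, 11.91, 12.47 and 12.36 in female extreme, and 9.68, 12.53, 12.44, 12.48 and 12.56 in male minimal responders.

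Rpl7 and Rpl23, also of the large subunit, parted the arrays in the same way. Rpl7 read 10.41, 10.13, 11.04, 10.31 and 10.06 in female controls and 12.52, 12.63, 12.86, 12.52 and 12.39 in male controls. In male extreme responders its values were 10.39, 10.34, 10.23, 9.94 and 9.99, back at the level of the female controls. Rpl23, on the face of the large subunit that the factor eIF6 covers, had 11.56, 11.46, 12.01, 11.67 and 11.42 in female controls, 13.10, 13.23, 13.32, 13.35 and 13.04 in male controls and 11.40, 11.72, 11.66, 11.79 and 11.57 in male extreme responders. For both genes the low arrays in the mixed groups were arrays 2 and 3 of female minimal, array 2 of female extreme and array 1 of male minimal.

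**Figure D1:**
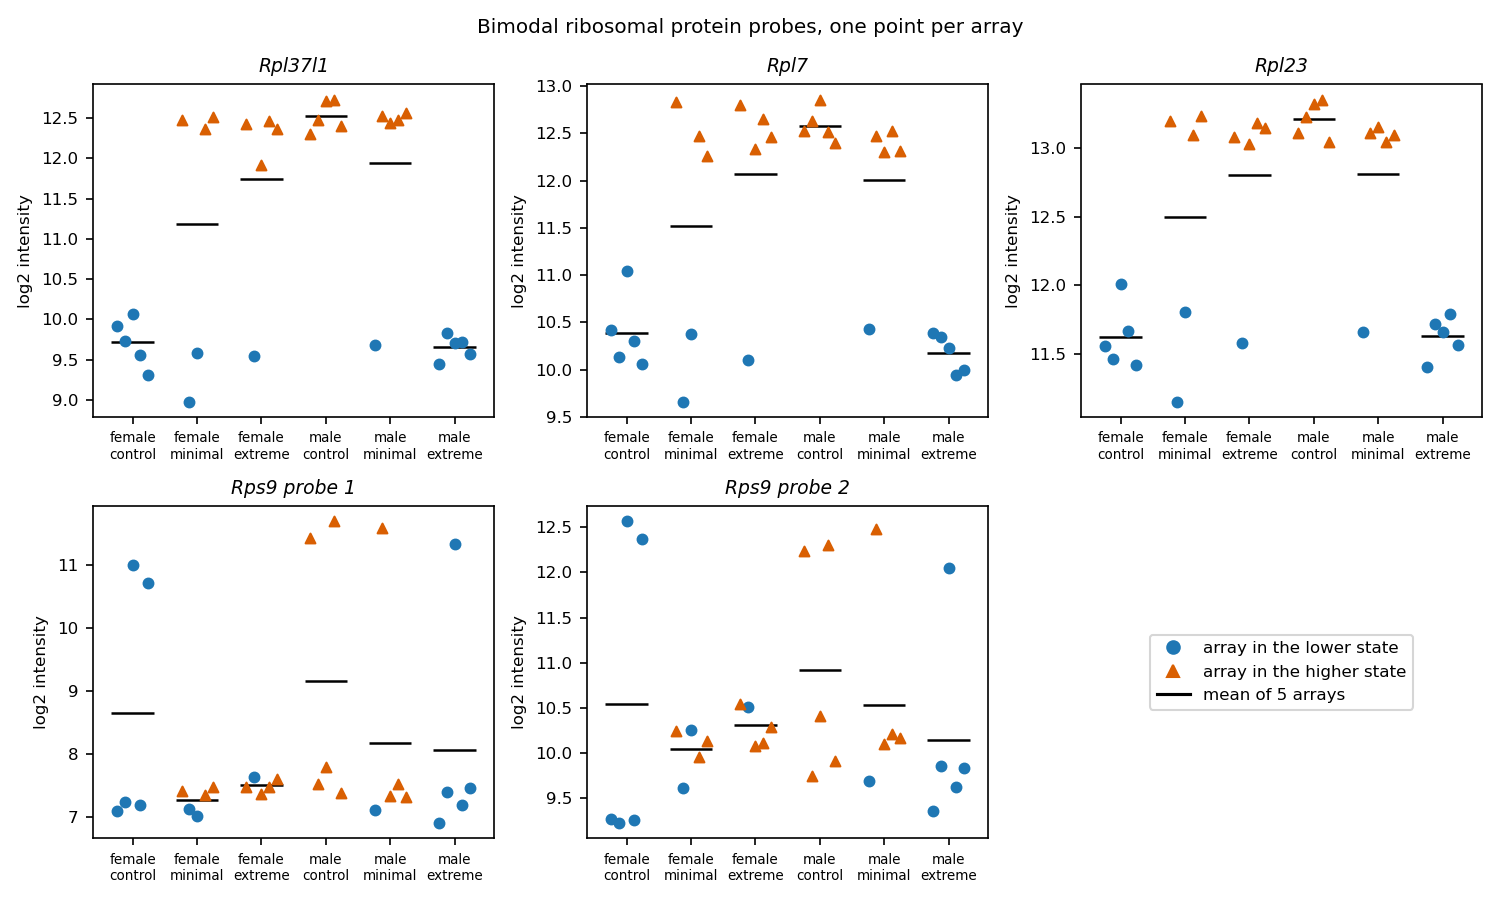
Log2 intensity of the 5 bimodal probes on each array, by group, with the mean of the 5 arrays as a bar and the array state as colour and shape. Rpl37l1, Rpl7 and Rpl23 part the arrays by state, and the Rps9 probes are high on 6 arrays spread over both states.

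The arrays were given a state from 5 other probes that carry no gene symbol and part the arrays with gaps of 1.06 to 3.55. This put 14 arrays in a lower state, namely all female controls, female minimal 2 and 3, female extreme 2, male minimal 1 and all male extreme responders. The other 16, all male controls among them, were in a higher state. The labels name no batch, and what sets the state was not tested. Because female controls, male controls and male extreme responders each lay in a single state, state and group cannot be told apart in comparisons among these 3 groups. Within the 3 mixed groups, 4 lower arrays stood against 11 higher ones. Higher minus lower within these groups was 2.95 ± 0.13 (SE) for Rpl37l1, 2.34 ± 0.15 for Rpl7 and 1.57 ± 0.10 for Rpl23. These values are descriptions, since the 3 probes were singled out for this split.

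The state reached beyond the bimodal probes. Rps29, a small zinc-binding protein of the small subunit, was 1.15 ± 0.12 (SE) higher in the higher state, and no array of the lower state, at 11.88 to 12.48, reached the higher arrays, at 12.74 to 13.62. It was the only member outside the bimodal set whose states did not overlap. How many of all tested probes had no overlap was not counted, and the 3 Actb probes named below had none either. Rpl36al1, named as a gene like Rpl36a of the large subunit, was lower in the higher state, at -0.90 ± 0.11. Rps20 of the small subunit differed by -0.80 ± 0.10, Rpl13a of the large subunit by -0.59 ± 0.14, Rplp1 of the stalk by -0.47 ± 0.13 and Rpl17 by -0.30 ± 0.09. On the other side Rps4x was 0.37 ± 0.07 higher, Rpl22 0.34 ± 0.14, Rps21 0.34 ± 0.11 and Rpl9 0.31 ± 0.09. In all, 10 of the 60 members exceeded a size of 0.3, 5 each way, which is 16.7% against 13.4% of all tested probes. Rps29 and Rpl36al1, which moved in opposite directions, lie on chromosome 6 in GRCr8 with 2 annotated genes between them, 1 of these protein-coding. Outside the family, the 3 probes of the actin gene Actb were lower in the higher state by -1.07, -1.34 and -0.53.

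Rps9, a small subunit protein that helps shape the messenger RNA entry site, parted the arrays along another line. Its first probe read 7.10, 7.23, 11.00, 7.19 and 10.72 in female controls and 11.43, 7.52, 7.80, 11.70 and 7.38 in male controls. Among the exposed rats it was high only in male minimal 2, at 11.59, and male extreme 3, at 11.33. Over all arrays the 6 high values averaged 11.30 ± 0.37 (SD) and the 24 low ones 7.35 ± 0.21. The second probe was high on the same 6 arrays, at 12.34 ± 0.18 against 9.93 ± 0.39, as was 1 probe with no gene symbol. High arrays made up 4 of the 10 controls and 2 of the 20 exposed rats, and 3 fell in each array state. Female minimal and female extreme responders had no high array. Among its low arrays the second probe still differed, at 9.22 to 9.27 in 3 female controls, 9.61 to 10.26 in female minimal and 10.08 to 10.54 in female extreme responders, which is given as a description without a test.

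Over the 6 groups, a limma F test called 18 of the 60 members at an adjusted p under 0.05, against 17.7% of all tested probes. With the array state as a covariate it called 6, of which 4 were among the 18, against 15.6% of all. The members with the smallest adjusted p were Rpl24 at 0.000504, Rpl14 at 0.00135 and Rpl10 at 0.00352, beside Rpl12, which was 1 of the 18. Rpl24 and Rpl14 were lowest in female controls and highest in male minimal responders, whereas Rpl10 was highest in female controls and lowest in female extreme responders. Adjusted for the state, the p was 0.00418 for Rpl24, 0.00878 for Rpl10 and 0.0564 for Rpl14.

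**Figure D2:**
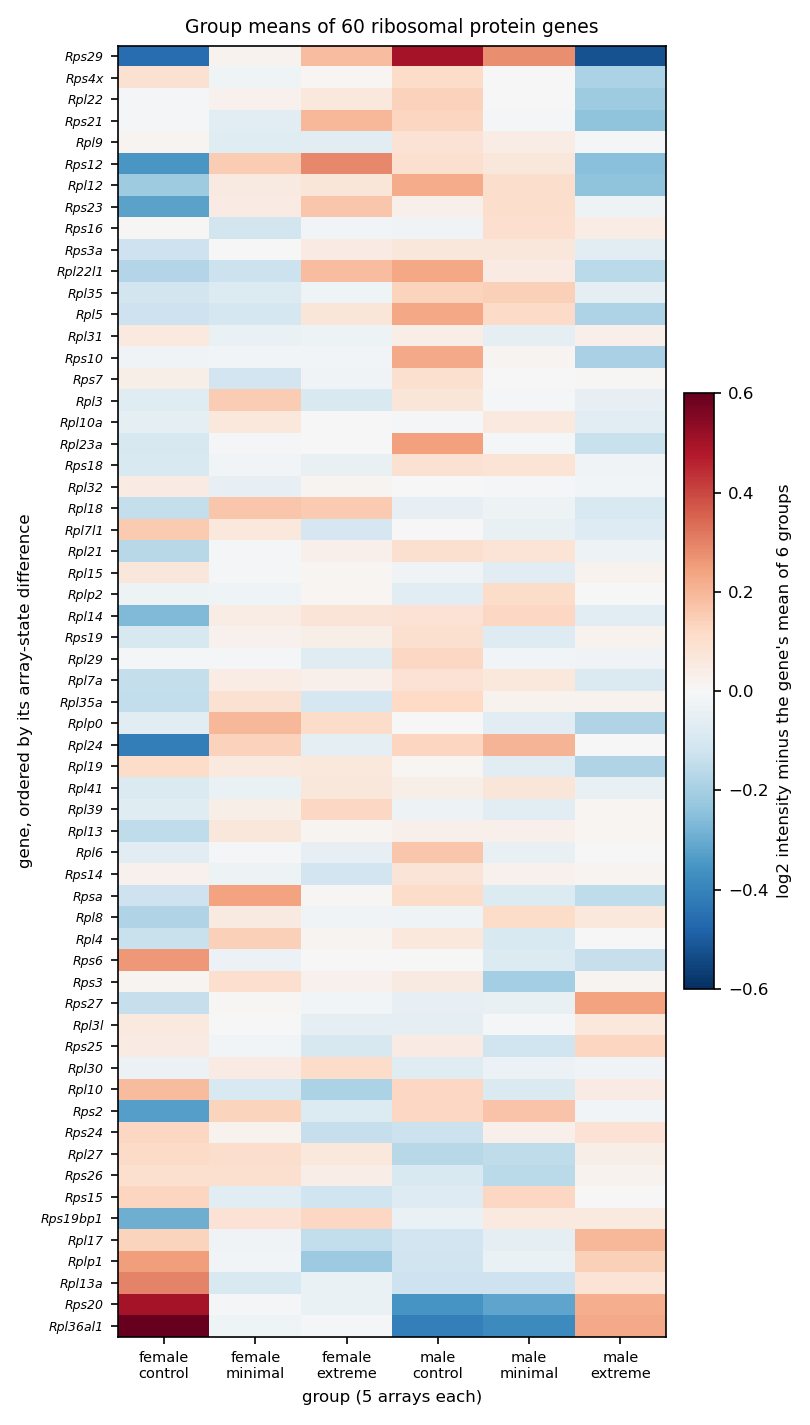
Group means of the 60 tested members as differences from each gene's mean over the 6 groups (log2, colour), with genes ordered by their difference between array states. The genes at the top and bottom, Rps29 and Rpl36al1, run in opposite directions over female controls, male controls and male extreme responders, and none of the values exceeds 0.6 in size.

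Exposed females, with both responder classes together, were set against control females. All female controls were in the lower array state but only 3 exposed females were, so exposure and state are partly mixed in this comparison. The large subunit genes Rpl24, Rpl14 and Rpl18 rose, as did the small subunit genes Rps12, Rps23 and Rps2 and the binding protein gene Rps19bp1. Rpl36al1, Rpl10 and Rps6 fell. With Rpl12, which was near background, 8 members were called higher and 3 lower, or 7 and 3 without it. The 8 and 3 were 13.3% and 5.00% of members, against 3.27% of all probes called higher and 3.60% called lower. The 13.3% counts Rpl12, which entered the tests only through groups where it was high. The 7 of the 60 members called higher without it were still above the background, and the lower calls were near it. The median difference was 0.061 over the members and 0.0019 over all tested probes. Of 34 large subunit members 4 were called higher, Rpl12 included, and 2 fell, of 22 small subunit members 3 rose and 1 fell, and of 4 paralogues or associated genes 1 rose.

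Rpl24, a protein at the bridge between the subunits, read 11.23, 11.17, 11.39, 11.25 and 11.16 in female controls. Female minimal responders had 12.01, 11.55, 11.89, 11.65 and 11.86, and female extreme responders 11.73, 11.64, 11.66, 11.53 and 11.42. Every exposed female was above every control female, and the difference was 0.45 ± 0.08 (SE, limma adjusted p = 0.000791). Adding the state as a covariate gave 0.39 ± 0.10 (adjusted p = 0.0203). Within the lower state, with 3 exposed against 5 control arrays, it was 0.44 (adjusted p = 0.0719).

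Rpl14 of the large subunit varied little within female controls, at 13.50, 13.43, 13.50, 13.47 and 13.48. The exposed females again lay wholly above them, with 13.88, 13.72, 13.83, 13.75 and 13.76 in minimal and 13.96, 13.64, 13.83, 13.79 and 13.89 in extreme responders. The difference was 0.33 ± 0.06 (limma adjusted p = 0.000823), 0.24 ± 0.07 with the state as a covariate (adjusted p = 0.0341) and 0.23 within the lower state (adjusted p = 0.182).

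As for Rpl24 and Rpl14, exposed and control females did not overlap for Rps19bp1, a trait that was not counted over all tested probes. Its values were 7.79, 7.70, 7.63, 7.81 and 7.70 in female controls, 8.21, 7.92, 8.39, 8.19 and 7.83 in minimal and 8.23, 8.40, 8.04, 8.05 and 8.01 in extreme responders. It rose by 0.40 ± 0.10 (limma adjusted p = 0.0156), and by 0.58 ± 0.12 with the state as a covariate (adjusted p = 0.0061). Without female control 2 the adjusted p was 0.0516.

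Rpl10, the X-linked protein that completes the large subunit, fell in exposed females by 0.33 on the log2 scale (SE 0.06, limma adjusted p = 0.00216). Female controls read 12.78, 12.97, 13.13, 12.96 and 12.80, minimal responders 12.74, 12.69, 12.82, 12.48 and 12.50, and extreme responders 12.67, 12.53, 12.50, 12.61 and 12.42. Only the minimal responders overlapped the controls. The difference was -0.25 ± 0.08 once the state was a covariate (adjusted p = 0.059).

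Rps12, a small subunit protein, had the largest called rise, 0.57 ± 0.14 (limma adjusted p = 0.0128). In female controls it read 10.75, 10.74, 11.38, 10.73 and 10.71, so control 3 stood well above the other controls. Minimal responders had 11.81, 10.82, 11.49, 11.45 and 11.27 and extreme responders 11.88, 11.44, 11.56, 11.38 and 11.26. The difference was 0.37 ± 0.17 with the state as a covariate (adjusted p = 0.194), and without female control 2 the adjusted p was 0.0508. Rps23, which lies at the decoding centre, rose by 0.43 ± 0.10 (adjusted p = 0.00903) and stood at 0.24 ± 0.11 with the state (adjusted p = 0.218).

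The remaining calls were less firm. Rpl18 differed by 0.30 ± 0.08 (limma adjusted p = 0.0161) and Rps2 by 0.36 ± 0.11 (0.0496). Rps6, the classic substrate of the S6 kinases, fell by 0.28 (SE 0.09, adjusted p = 0.0495). Rpl12 read 6.76 to 6.91 in female controls, all below the array median, and 6.78 to 7.34 in exposed females. Leaving out single arrays ended the call in 11 of 15 fits for Rps2, 10 for Rps6 and 1 for Rpl18. The replicate number as a block gave limma adjusted p = 0.0601 for Rps2 and 0.053 for Rps6, though no label links same-numbered control and exposed rats. Rpl36al1 was at -0.62 ± 0.19 (adjusted p = 0.0421), but at 0.01 ± 0.12 with the state as a covariate (adjusted p = 0.965).

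**Figure D3:**
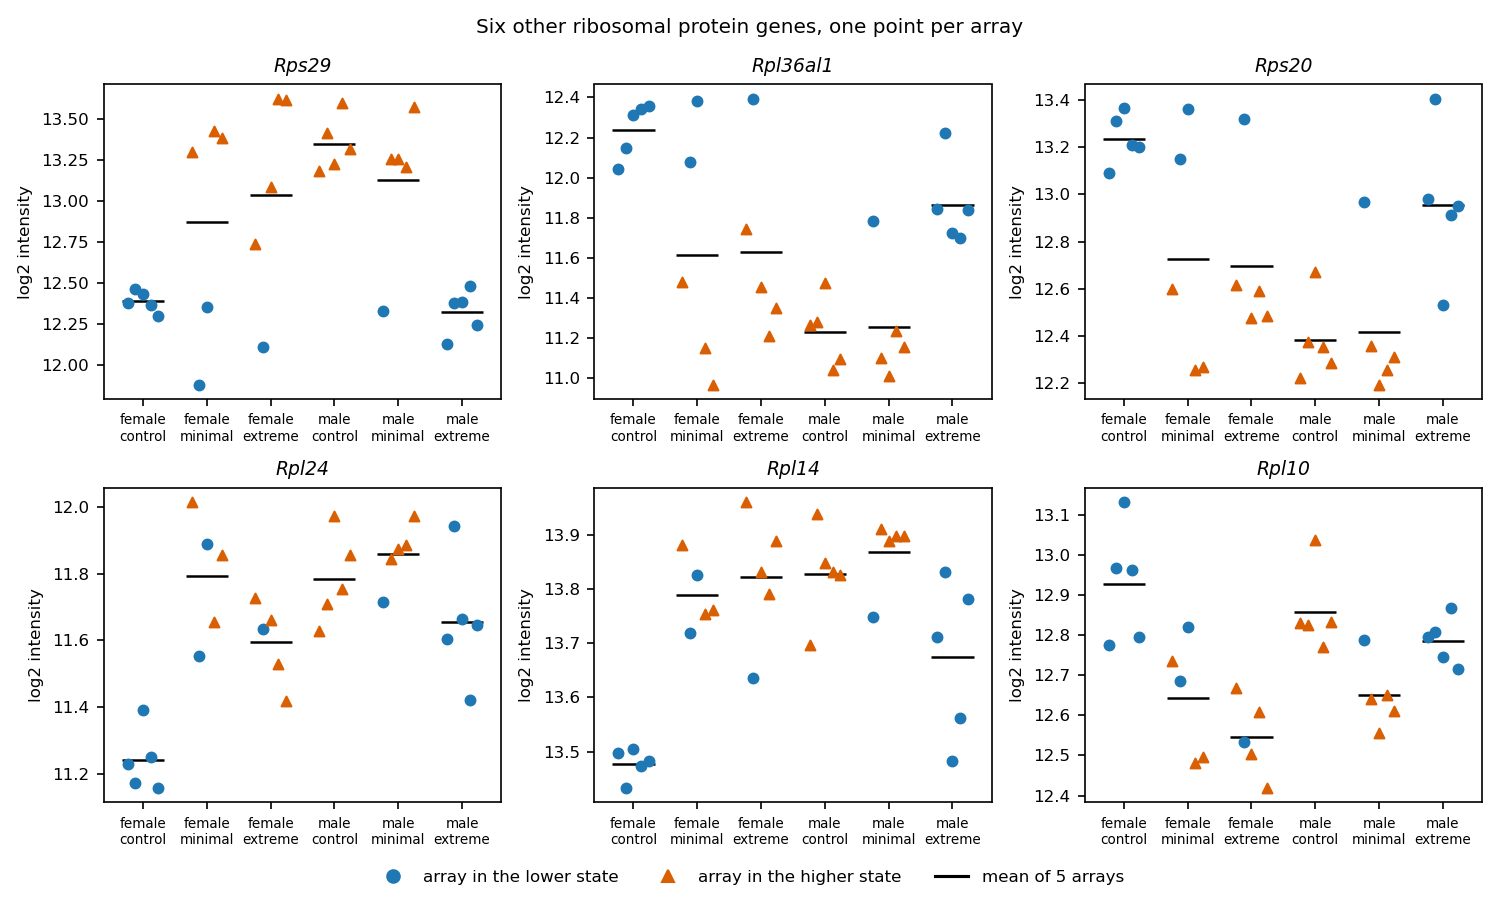
Log2 intensity of 6 members on each array by group, with the group mean as a bar and the array state as colour and shape. Rps29, Rpl36al1 and Rps20 follow the array state, while Rpl24 and Rpl14 are low in all 5 female controls and Rpl10 is lower in exposed than in control females.

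Taking the state into account, 3 members were called higher and 2 lower in exposed females, against 2.16% and 2.68% of all probes, and 3 of these 5 were among the earlier 11. Besides Rpl24, Rpl14 and Rps19bp1 these were Rps4x of the small subunit at -0.36 ± 0.09 (limma adjusted p = 0.0162), and Rpl7l1, the paralogue of Rpl7, at -0.28 ± 0.07 (adjusted p = 0.0203). Without the state these differences were -0.10 ± 0.09 and -0.18 ± 0.06, neither past the threshold. Within the lower state limma called 0 members, while 16 (26.7%) had an unadjusted p under 0.05, against 20.1% of all probes.

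Other named members did not pass in exposed females. The stalk gene Rplp0 was at 0.22 ± 0.07 (limma adjusted p = 0.0677), Rplp1 at -0.37 ± 0.14 (0.12) and Rplp2 at 0.02 ± 0.07 (0.895). Rpsa, the laminin receptor homologue of the small subunit, was at 0.25 ± 0.08 (0.0696). Rpl22 was at 0.06 ± 0.14 and its paralogue Rpl22l1 at 0.20 ± 0.12, and Rpl3l, a striated muscle paralogue of Rpl3, at -0.09 ± 0.06. Rps29 and Rps20, which moved with the state, were at 0.56 ± 0.23 (0.147) and -0.52 ± 0.17 (0.055, or 0.044 with the block), and at -0.24 ± 0.14 and 0.03 ± 0.12 with the state as a covariate.

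**Figure D4:**
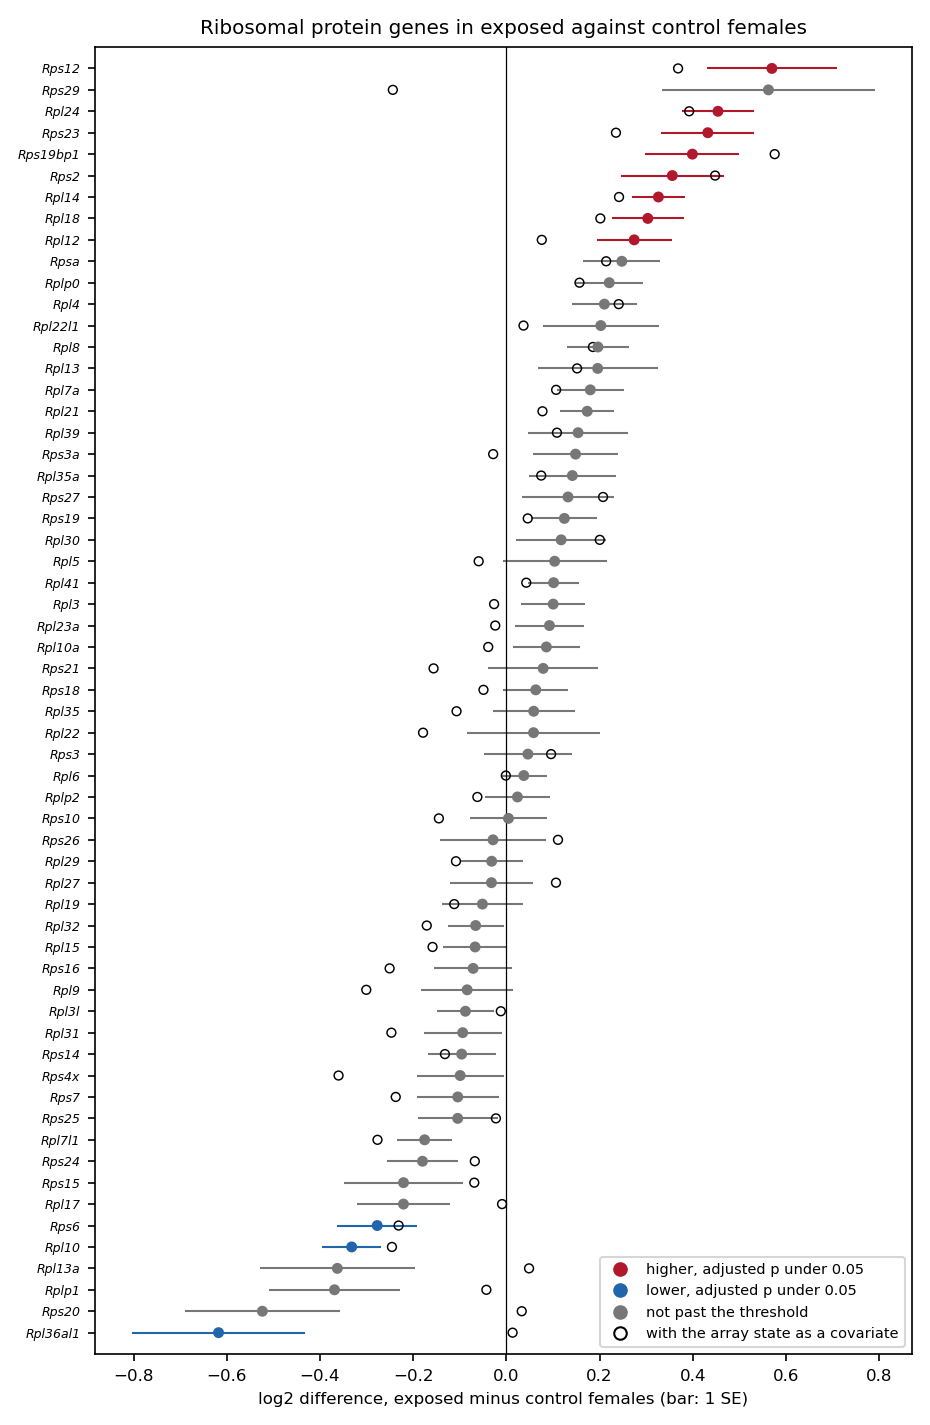
Log2 difference of exposed minus control females for the 60 tested members (filled points, bars 1 SE, red and blue for calls at an adjusted p under 0.05) and the same difference with the array state as a covariate (open circles). Rpl24, Rpl14 and Rps19bp1 stay above 0 in both, and Rpl36al1 and Rps20 move to about 0.

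The responder classes were also set against the same 5 female controls, so their values are not independent of each other. In female extreme responders 6 members were higher and 2 lower, against 3.35% and 3.18% of all probes. Rps12 rose by 0.64 ± 0.16 (limma adjusted p = 0.0154), Rps23 by 0.49 ± 0.12 (0.00982), Rps19bp1 by 0.42 ± 0.12 (0.0286), Rpl24 by 0.35 ± 0.09 (0.0159), Rpl14 by 0.34 ± 0.06 (0.00208) and Rpl18 by 0.30 ± 0.09 (0.0412, or 0.0586 with a block for the replicate number). Rpl10 fell by 0.38 and Rpl7l1 by 0.26. The state as a covariate gave 1 higher and 2 lower, against 2.26% and 2.17%. These were Rps19bp1, Rpl7l1 and Rps4x, while Rpl24 (adjusted p = 0.141), Rpl14 (0.0598) and Rpl10 (0.0619) lost their calls, as did Rps12, Rps23 and Rpl18. In female minimal responders 3 were higher and 1 lower, against 0.827% and 1.15% of all probes. Rpl24 rose by 0.55 ± 0.09 (0.000988), Rpl14 by 0.31 ± 0.06 (0.00951) and Rpsa by 0.37 ± 0.10 (0.0399, and 0.0558 with the block), while Rpl10 fell by 0.28. The covariate gave 3 higher and 1 lower, against 1.06% and 1.47%, but these were largely other genes. Rpl24 kept its call (adjusted p = 0.0105) and Rps2, Rps19bp1 and Rps4x gained one, while Rpl14 (0.0662), Rpl10 (0.162) and Rpsa (0.0979) lost theirs. Without the covariate Rpl24 and Rpl14 were called higher and Rpl10 lower in each class, and with it only the call of Rpl24 in minimal responders held among these 6.

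No member passed between extreme and minimal females. By limma 0 of 60 were called, against 0.128% of all probes, and 5 had an unadjusted p under 0.05, or 8.33% against 9.48% of all. The smallest p belonged to Rpl3, a protein near the peptidyl transferase centre, at -0.24 ± 0.08 (adjusted p = 0.311). Rpl3 read 14.37, 14.16, 14.14, 14.42 and 14.46 in minimal and 14.05, 13.94, 14.02, 14.23 and 14.11 in extreme responders, and these overlapped. Same-numbered rats of these groups were also set side by side, as a description, since no label links them. In these pairs Rpl3 was lower in the extreme rat by -0.33, -0.23, -0.13, -0.19 and -0.36, and the limma adjusted p with the block was 0.328. Rpsa, at -0.24 ± 0.10 (adjusted p = 0.431, or 0.449 with the block), and Rpl7l1 were also lower in all 5 pairs, and Rps21 was higher in all 5. In all, 3 members (5.00%) were lower and 1 (1.67%) higher in every pair, against 5.06% and 4.83% of all tested probes.

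Males gave few calls. In exposed against control males limma called 0 of 60 members and 0% of all probes, while 13 members (21.7%) and 9.37% of all probes had an unadjusted p under 0.05. Of those 13, Rpl12 among them, 12 were lower. Rpl23a, which sits beside the tunnel exit, was at -0.32 ± 0.07 (limma adjusted p = 0.145), Rpl6 of the large subunit at -0.19 ± 0.05 (0.183) and Rps10 of the small subunit at -0.32 ± 0.08 (0.183). Rpl12, at the base of the stalk, differed by -0.29, which is a description, since the exposed males include the extreme responders. Male minimal responders against controls gave 0 calls among members and 0% of all probes, with 7 members (11.7%) and 5.15% of all at an unadjusted p under 0.05. Rpl6 did not overlap between these groups, at 13.50, 13.48, 13.47, 13.53 and 13.61 in minimal responders and 13.75, 13.70, 13.84, 13.72 and 13.66 in controls, but its limma adjusted p was 0.71. Rps3 did not overlap either, at 12.88 to 12.99 in minimal responders and 13.03 to 13.39 in controls, and was not called. The share of all probes without overlap was not counted.

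Male extreme responders differed from male controls in 3 members, all lower, or in 2 without Rpl12, against 0.496% of all probes called lower and 0.301% higher. Rpl12 read 7.29, 7.12, 7.32, 7.13 and 7.35 in controls and 6.78, 6.75, 6.79, 6.88 and 6.67 in extreme responders. All controls were above the array median and all extreme responders below it, where a level is near background, and the difference of -0.46 is a description. Rpl23a, at 14.63, 14.67, 14.83, 14.59 and 14.46 against 14.18, 14.20, 14.11, 14.42 and 14.37, fell by 0.38 (limma adjusted p = 0.0353) without overlap. Rps10 fell by 0.42 (adjusted p = 0.038, or 0.0537 with a block for the replicate number). These groups lie wholly in opposite states, and with the state as a covariate 0 members passed, against 0% of all probes, and 1 member (1.67%) and 7.48% of all probes had an unadjusted p under 0.05. Rps29 was at -1.02 ± 0.26 (adjusted p = 0.0604, and 0.0471 with the block). Leaving out male control 1 or 3 or male extreme 5 left 0 calls, and leaving out male control 2, 4 or 5 or male extreme 1 or 3 left 1. The shares of all probes in these fits are not given.

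Extreme against minimal males gave 0 calls among members and 0% of all probes by limma, with 11 members (18.3%) and 9.99% of all at an unadjusted p under 0.05. Rps29 was at -0.80 ± 0.26 (adjusted p = 0.247). Rpl36al1 was at 0.61 ± 0.21 and Rpl14 at -0.19 ± 0.06, neither past the threshold, and Rpl12 differed by -0.35.

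Control rats of both sexes differed in 8 members that were higher in males, 7 without Rpl12, and 2 that were lower, against 3.15% and 2.88% of all probes. Rps29 read 12.38, 12.46, 12.43, 12.37 and 12.30 in females and 13.18, 13.41, 13.22, 13.59 and 13.32 in males, a difference of 0.96 ± 0.26 (limma adjusted p = 0.0282). Rpl36al1 read 12.04, 12.15, 12.31, 12.34 and 12.36 in females and 11.26, 11.28, 11.48, 11.04 and 11.10 in males, a difference of -1.01 ± 0.21 (adjusted p = 0.00511). Rps20 was lower in males by -0.85 ± 0.19 (0.00752). None of these 3 overlapped between the sexes, and several other members, Rpl24, Rpl14, Rpl21 and Rpl6 among them, did not overlap either. The share of all probes without overlap was not counted. The other higher members were Rpl24 at 0.54 ± 0.09, Rps2 at 0.46 ± 0.13, Rpl14 and Rpl23a each at 0.35, Rpl21 at 0.26 and Rpl6 at 0.23, beside Rpl12, at 6.76 to 6.91 in females and 7.12 to 7.35 in males. All female controls were in the lower and all male controls in the higher state, so sex and state cannot be told apart here. With the state as a covariate, estimated from the mixed groups, 0 members passed, against 0.248% and 0.368% of all probes, 11 had an unadjusted p under 0.05 (18.3% against 12.6% of all), and the smallest adjusted p was 0.0841 for Rpl24 at 0.46 ± 0.12.

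The difference of exposed minus control was then compared between the sexes, as the male minus the female difference. All female controls were in the lower and all male controls in the higher state, so state is mixed into this contrast. The contrast was higher for 3 members and lower for 7, or 6 without Rpl12, against 2.24% and 2.25% of all probes. For Rpl24 the difference was 0.45 in females and -0.03 in males, and the contrast of the sexes was -0.48 ± 0.11 (limma adjusted p = 0.0132). Rpl14 was at 0.33 in females and -0.06 in males, with a contrast of -0.38 ± 0.08 (0.00713). Rps12 stood at 0.57 and -0.19, with a contrast of -0.76 ± 0.20 (0.0263), and Rpsa at 0.25 and -0.23, with a contrast of -0.48 ± 0.12 (0.0186). Rpl23a, at 0.09 and -0.32, had a contrast of -0.41. Rps29 had -1.18, and the higher contrasts were those of Rpl36al1 at 0.95, Rps20 at 0.83 and Rps24 at 0.37. With the state as a covariate 0 members passed, against 0.0601% and 0.0451% of all probes, and 12 had an unadjusted p under 0.05 (20.0% against 16.7% of all). The difference of extreme minus minimal between the sexes gave 0 calls among members by limma, against 0.0526% of all probes, with 11 members (18.3%) and 11.8% of all at an unadjusted p under 0.05.

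Genes around the ribosome were read from pathway lists in exposed against control females, where 3.27% of all probes were called higher and 3.60% lower. Of 8 elongation factors 0 rose and 1 fell, Eif5a, which helps the ribosome past stalling sequences, by 0.36. Of 36 initiation factors, a list that also holds Eif5a, 3 rose and 1 fell. The RNA helicase gene Eif4a1 rose by 0.51 ± 0.08 (limma adjusted p = 0.000373), Eif3m by 0.37 and Eif2ak4, the kinase that senses uncharged transfer RNA, by 0.33. Of 31 biogenesis genes 3 rose, Ebna1bp2 by 0.53 ± 0.08 (0.000219), Gnl3 by 0.35 and Polr1e, of RNA polymerase I, by 0.25, and 1 fell, Rrp1 by 0.28. Of 57 mitochondrial ribosomal protein genes 6 rose and 0 fell, among them Mrpl41 by 0.41 and Mrpl1 by 0.41. With the state as a covariate 1 of the 57 was called higher, and their median went from 0.0240 to -0.0220. In the S6 kinase and mTOR list 2 of 15 rose, Ddit4, an inhibitor of mTOR signalling, by 0.74 ± 0.15 (0.00269) and Mtor itself by 0.26, and 1 fell, Akt1s1 by 0.26. Of 4 fusion and ribosome-associated genes none passed. The medians of these lists lay between -0.0184 and 0.0240, beside 0.061 for the ribosomal protein genes. With the state, 2 initiation factors, 2 biogenesis genes and 2 genes of the mTOR list were called higher, against 2.16% of all probes, and 0, 1 and 0 lower, against 2.68%. The calls for Eif4a1, Ebna1bp2, Gnl3, Ddit4 and Mtor also passed with the state as a covariate.

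Tissue markers also varied in the females. Of 8 oligodendrocyte and myelin markers 0 passed in exposed against control females, with a median of 0.76, and their mean level ran from 8.96 to 11.54 in female controls, 9.73 to 12.04 in minimal and 10.10 to 12.18 in extreme responders, against 8.94 to 10.74 in male extreme responders. Of 4 thalamus markers 0 passed, with a median of 0.61 and array means of 7.74 to 10.90, 8.19 to 10.41 and 8.45 to 11.64 in the same female groups. Camk2a, 1 of 4 excitatory neuron markers, fell by 0.80. With the mean of the myelin markers as a covariate, 8 ribosomal protein genes were called higher and 6 lower in exposed females, and with that of the thalamus markers 9 and 4, where 8 and 3 were called without one. Of all probes, 3.55% were called higher and 3.79% lower with the myelin mean, and 3.31% and 3.67% with the thalamus mean. Of the earlier 11 calls, Rpl12 included, all 11 stayed with the thalamus mean and 10 with the myelin mean, where Rps2 had a limma adjusted p of 0.0564. Rpl24, Rpl14 and Rpl10 were among those kept, with adjusted p of 0.00195 or less. Rpl36al1, which followed the array state, was kept as well, at -0.81 with the myelin and -0.75 with the thalamus mean. Neuron markers were present on every array, with means from 10.51 to 11.66 over the 5 genes.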

How the data were processed

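The authors deposited log2 intensities for 22523 probes on 30 arrays. The log2 scale was judged from the values, which run from 6.38 to 15.06, and the equal column medians of 7.02 show a table already normalized, so the planned background correction and quantile normalization were not repeated. RNA was column-purified with DNase and labelled with biotin, per the labels' protocols. Which software read or normalized the arrays is not stated in the labels. A second deposited table was not used, because its 60 columns match no sample.

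Probes were named from the platform annotation. The members and gene lists were chosen with earlier results of these data known. Probes entered the tests where at least 5 arrays held them above their median, 13308 in all. R 4.3.3 and limma 3.58.1 fitted the 6 group means (residual degrees of freedom 24), and p-values were adjusted by Benjamini and Hochberg over all tested probes, with a threshold of 0.05. The fit was tested on simulated data. Correlations between arrays were 0.9559 to 0.9953, with 0 pairs identical.

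The array state is the split shared by unnamed probes that leave a gap of 1 or more between 2 sets of arrays, each of 5 or more. As a check of pairing, each array's departure from its group mean was correlated across groups. Same-numbered minimal and extreme females gave 0.146 to 0.687 (mean 0.421, other numbers -0.104), and for this reason a block was fitted as an alternative. That choice came from these same data. Both groups also shared the array state at every number except 3, so the correlation does not show that the rats were paired. The replicate number is the order of arrays within a group, and no label links same-numbered rats. In the other pairs of groups the mean of same-numbered arrays was -0.322 to 0.124. The block was fitted over all 6 groups, so it ties rats with no known link. In each comparison up to 12 members each way with the largest called differences could be named, or the 4 with the smallest p where under 4 passed, beside members named throughout (the bimodal genes, the stalk genes, Rpsa, Rps6, Rpl10, Rpl22 and paralogues). Pathway lists name genes with the smallest p. Rpl38, Rps27a and Rpl37 were not analysed here.

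Other settings were no filter, a stricter filter (60th percentile, 15 arrays), array weights, robust variances, the replicate block, arrays of 1 sex, 1 probe per gene, the state as a covariate, arrays of 1 state, median centring, normexp with an offset of 16, and leaving out each array. The myelin and thalamus covariates were chosen after seeing the data. Promoter windows of 300 bases came from the RefSeq table on GRCr8, and no coordinates of probes were used.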

Additional observations from a re-analysis of the deposited data

Results flagged for a closer look

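Single arrays stood apart from the other 4 of their group in 24 of the 174 combinations of probe and group checked. The bimodal probes, set apart because their values part the arrays, account for 10 of them, and several flags fall on the same arrays. Chance flags about 1 in 20 of independent combinations, so the 24 cannot be compared with that rate. Female extreme 2 was low for Rpl37l1 (9.54, nearest other array 11.91), Rpl7 (10.10, nearest 12.33) and Rpl23 (11.58, nearest 13.03). Male minimal 1 was low for the same genes, at 9.68, 10.43 and 11.66, with the nearest arrays at 12.44, 12.30 and 13.04. The first Rps9 probe was high in male minimal 2 (11.59, nearest 7.52) and male extreme 3 (11.33, nearest 7.47), and the second probe in the same arrays (12.48 and 12.05, nearest 10.21 and 9.85).

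Other members stood apart in the same arrays or in a few others. Rps20 was high in female extreme 2 (13.32) and male minimal 1 (12.97), where Rpl36al1 was also high (11.78) and Rpl14 low (13.75). Male extreme 2 was high for Rpl36al1 (12.22), Rps6 (12.94) and Rpl22l1 (8.84), and male extreme 5 for Rps24 (8.69). Female control 3 was high for Rps12 (11.38) and low for Rpl22l1 (8.09), and its mean over the members, 12.21, stood above the nearest control at 12.02. Female control 4 was low for Rps24 (8.39), female minimal 2 for Rpl5 (7.23), and male control 3 was high for Rps12 (11.84) and Rpl10 (13.04).

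The difference of exposed minus control differed between the sexes by the interaction term of the limma fit for 10 of the 60 members, or 9 without Rpl12, against 4.49% of all probes. It also differed for 3 bimodal probes, kept apart from this count. All female controls were in the lower and all male controls in the higher state, so state is mixed into this contrast. As male minus female, the difference was -3.47 for Rpl37l1, -2.89 for Rpl7, -2.01 for Rpl23, -1.18 for Rps29, -0.76 for Rps12, -0.56 for Rpl12, -0.48 for Rpl24, -0.48 for Rpsa, -0.41 for Rpl23a and -0.38 for Rpl14. The first 3 genes were singled out for how their levels part the arrays, and Rpl12 was below the array median on every female control, so these 4 values are descriptions. The male minus female difference was 0.95 for Rpl36al1, 0.83 for Rps20 and 0.37 for Rps24. With the array state as a covariate none of the 60 members outside the bimodal set passed, against 0.105% of all probes. By limma 12 of them had an unadjusted p under 0.05 (20.0% against 16.7% of all).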

How the results depend on the processing

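The number of members past the threshold changed most with the array state, array weights and single arrays, and the cause was not tested. Array weights gave 18 members in exposed minus control females (30.0% of members, 9.60% of all probes), 14 in extreme minus control (23.3%, 7.72%), 10 in minimal minus control (16.7%, 3.21%), 3 in exposed minus control males (5.00%, 1.46%), 6 in extreme minus control males (10.0%, 2.72%), 4 in extreme minus minimal males (6.67%, 1.51%), 25 between control sexes (41.7%, 15.6%), 20 in the sex difference of exposure (33.3%, 10.5%) and 28 among the 6 groups, where 25.6% of all probes passed. The state as a covariate gave 5 members in exposed minus control females (4.85% of all probes) and 3 in extreme minus control females (4.43%). It gave 0 in extreme minus control males (0%), 0 between control sexes (0.616%) and 0 in the sex difference of exposure (0.105%). Among the 6 groups it gave 6 (15.6%), and it moved the median of the sex difference of extreme minus minimal to 0.0611. Within the lower state the exposed, extreme and minimal minus control females gave 0, with a single extreme array assumed to vary like the other groups. With only the arrays of a sex the counts were 5 in exposed (2.65% of all probes) and 3 in extreme minus control females (2.46%). In males they were 1 in exposed minus control (0.398%), 5 in extreme minus control (2.63%) and 3 in extreme minus minimal (0.571%). The stricter filter gave 2 (1.57% of all probes) and normexp 1 (1.61%) in minimal minus control females. Extreme minus control males gave 1 with robust variances (0.331% of all probes), 1 with normexp (0.301%) and 5 with the myelin covariate (1.48%). Normexp, the myelin and the thalamus covariate gave 10, 11 and 10 among the 6 groups, against unlike shares of all probes, at 16.6%, 7.60% and 7.12%. With the state as a covariate, exposed minus control females had Rpl36al1 at 0.01, Rpl37l1 at -0.32, Rpl7 at -0.23 and Rpl23 at -0.08, and within the lower state 0.07, -0.30, -0.33 and -0.10. Extreme minus control females had Rpl37l1 at -0.34, Rpl7 at -0.19 and Rpl23 at -0.08 with the covariate, and -0.17, -0.29 and -0.05 within the lower state. The covariate also turned Rpl37l1 in extreme minus control males to 0.08, Rps29, Rpl37l1 and Rpl7 between control sexes to -0.19, -0.14 and -0.15, and in the sex difference of exposure Rpl36al1 to -0.22, Rps20 to -0.21, Rps29 to 0.31, Rpl37l1 to 0.36, Rpl7 to 0.15 and Rpl23 to 0.03. Leaving out 1 array at a time gave 5 to 15 members in exposed minus control females (5 without female control 2, 7 without female control 4 or 5 or female extreme 4, 15 without female minimal 2), 5 to 11 in extreme minus control (5 without female control 2 or female extreme 1) and 2 to 9 in minimal minus control (2 without female control 2 or 4 or female minimal 1 or 4, 9 without female minimal 2). It gave 0 to 2 in extreme minus control males, 6 to 11 between control sexes (6 without male control 3), 4 to 17 in the sex difference of exposure (4 without female control 2, 5 without female control 1, 6 without female control 4 or 5 or male control 2 or 3, 17 without female minimal 2) and 11 to 20 among the 6 groups (11 without female control 4 or 5). The shares of all probes in these fits are not given, so these counts have no background beside them. The replicate block gave 10 members in exposed minus control females (6.48% of all probes), 7 in extreme (6.51%) and 3 in minimal minus control (1.92%). Beside the changes given with the results it ended the call of Rps24 and added Rpl4, just under the threshold, in the sex difference of exposure (limma adjusted p = 0.0665 and 0.05). It changed no other call among the tested members outside the bimodal set. A bead signal near the array median, as for Rpl12 and Rps19, limits what a difference there can show.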
